A study of Sus scrofa with 40 samples.

Results

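Single mature oocytes of the pig (Sus scrofa) whose count columns carry the date 22 September were compared with those whose columns carry the date 17 September. The members were chosen by the start of the column name alone, which gave 29 of the 40 libraries of the series: 12 oocytes of 22 September (6 mtDNA-deficient and 6 mtDNA-normal) and 17 oocytes of 17 September (8 deficient and 9 normal). The other 11 libraries hold pooled oocytes and are not analysed here. What happened on either date (collection, extraction, library preparation or sequencing) is not stated in the labels, so the word date below means the column name and nothing more. All 29 libraries were from 1 oocyte each, at metaphase II, from commercial hybrid pigs of Large White, Duroc and Berkshire background. RNA was extracted in the tube, and libraries were made with a Nugen SoLo kit whose InDA-C primers for pig deplete unwanted transcripts, then read as 100 bp pairs on an Illumina HiSeq. The mtDNA state, a low or a normal amount of mitochondrial DNA, was kept in every model of gene counts that held both states. The labels do not say which oocytes came from the same animal, so the p-values reflect variation among these libraries and sums, some or all of which may be technical.

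A metaphase II oocyte waits for sperm with its chromosomes lined up on the second meiotic spindle. Transcription is essentially silent at this stage, so its RNA is a maternal stock laid down during growth, which is stored, translated and degraded on a schedule until the embryo's own genome takes over. CDC25B, a phosphatase that switches on CDK1 for meiotic resumption, H1FOO, the linker histone of oocytes, and BMP15, a growth factor that oocytes secrete, belong to that stock.

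All 3 of these oocyte genes had counts in every one of the 29 oocytes, so the defining markers of the labelled cell type were present throughout. Total counts in rows that name a gene lay between 706929 and 1668943 in oocytes of 22 September, and between 797353 and 3067523 in those of 17 September. A single row, LOC102158401, held 60.02% ± 7.14 of the counts in oocytes of 22 September (SD, n = 12) and 62.5% ± 6.12 in those of 17 September (SD, n = 17). After it and RN18S were set aside, 232358 to 825748 counts per oocyte were left for all other genes. Since 1 oocyte gives few counts per gene, oocytes that share date, mtDNA state and the first number of the title were summed, giving 4 sums of 22 September (2 to 4 oocytes each) and 5 sums of 17 September (2 to 5 oocytes each). What the title number stands for is not stated. On 17 September, some titles of number 3 share the state and the second number of the title and differ only in the S number. These are deficient S21 and S31, normal S6 and S29, and normal S7 and S30. Whether such a pair came from 1 oocyte is not stated, and each library was taken as a separate oocyte. Levels below are CPM, the gene's share of all gene counts of a library or sum on the usual scale, which are not scaled by gene length, so levels of different genes are not compared.

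Across these 9 sums, 27 of 11850 tested genes were higher (0.228%) and 18 were lower (0.152%) in oocytes of 22 September, together 45 genes or 0.38%, in edgeR's quasi-likelihood test at a Benjamini-Hochberg adjusted p of 0.05. Without adjustment, 1308 genes had a p under 0.05, against 592.5 that this threshold gives by itself. The log2 difference, 22 September minus 17 September, ran between 0.79 and 3.98 among the 27 higher genes, with a median of 1.84. It ran between -0.85 and -6.95 among the 18 lower genes, with a median of -1.47. The median over all tested genes was -0.02, so the centre of the distribution lay near 0. The test takes the 9 sums as independent, although deficient and normal sums that share a date and a title number deviated together, with a correlation across genes of 0.159 on 22 September and 0.198 on 17 September. With date and number as a random block in limma-voom, an alternative chosen after seeing the data, 24 genes were higher and 12 lower over the sums, against 45 and 26 in limma-voom without it, and 26 of the 45 genes were called. Protein-coding genes made up 32 of the 45, with 5 long non-coding RNAs, 1 ribosomal RNA and 7 rows that matched no entry of the name tables.

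**Figure D1:**
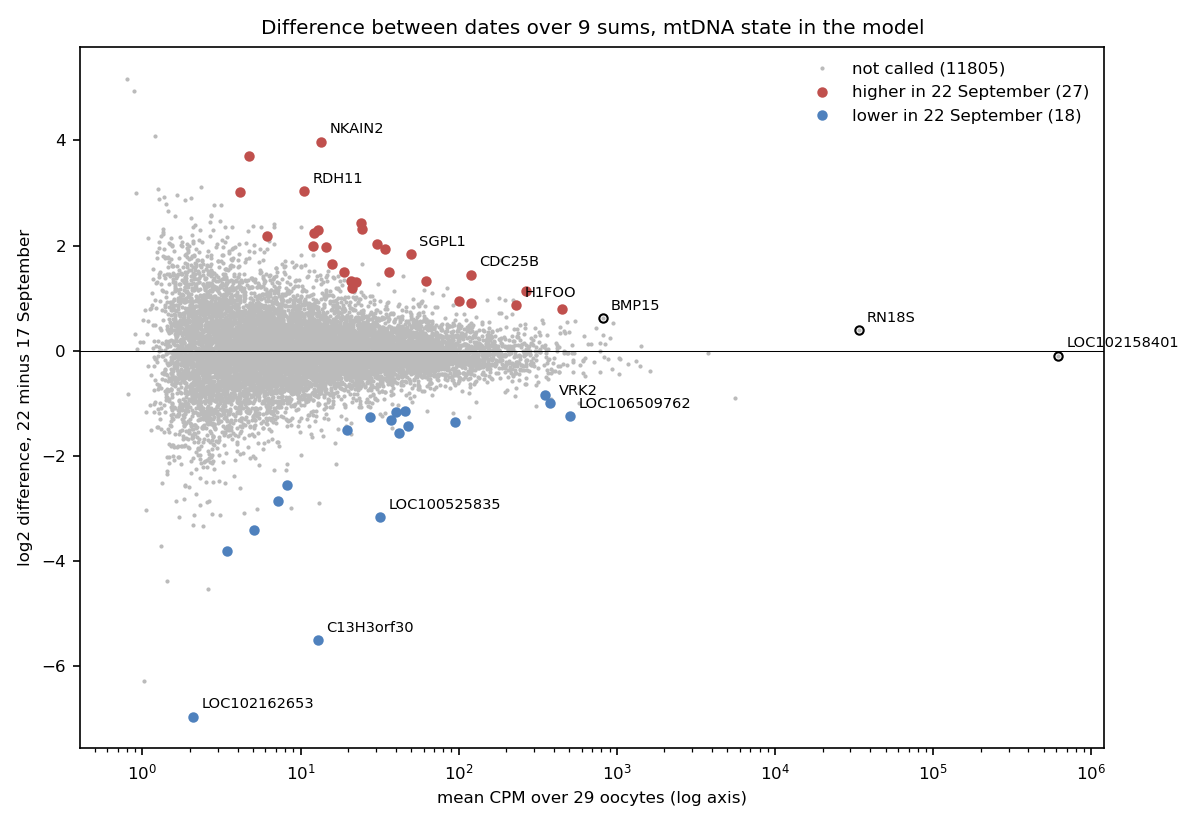
Each point is a tested gene, with its mean CPM over 29 oocytes on a log axis and its log2 difference between the dates on the vertical axis. The 27 higher genes (red) and 18 lower genes (blue) lie above and below the bulk of the genes, whose median is -0.02, and BMP15, RN18S and LOC102158401 (black rings) did not pass the threshold.

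With scaling by library size alone in place of TMM, 20 genes were higher and 6 lower, so that 76.9% of calls were higher, against 60% with TMM. The median of all genes was then 0.07. Of the 45 genes, 23 kept their call under that scaling, and none changed sign.

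CDC25B, the activator of CDK1 at the entry into M phase, separated the dates without overlap. In the order deficient number 2, deficient number 4, normal number 2 and normal number 4, its level was 158, 222, 178 and 227 CPM in the sums of 22 September. It was 107, 61.2, 78.5, 49.3 and 60.04 CPM in the sums of 17 September, in the order deficient numbers 1, 3 and 4 and normal numbers 3 and 4, and the same orders hold for all sums below. Every sum of 22 September was above every sum of 17 September, by a log2 difference of 1.44 (SE 0.18, adjusted p = 0.000304 in edgeR). Single oocytes showed the same split. The lowest, median and highest oocytes of 22 September stood at 123, 195 and 261 CPM, and those of 17 September at 25.1, 64.0 and 121 CPM. All 12 oocytes of 22 September were above all 17 of 17 September.

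C13H3orf30, a protein-coding gene named for its place on pig chromosome 13, showed the same separation with the opposite sign. It had 0, 0.188, 1.49 and 0 CPM in the sums of 22 September and 14.6, 29.3, 16.5, 25.2 and 17.4 CPM in the sums of 17 September. These values stand for 8 counts over 12 oocytes and 579 counts over 17. No oocyte of 22 September reached the lowest oocyte of 17 September, and 7 of the 12 had no count. The margin was narrow and rests on few counts. The highest oocyte of 22 September had 3.05 CPM, and the lowest of 17 September had 3.28 CPM. The log2 difference was -5.50 (SE 0.63, adjusted p = 0.000171 in edgeR). Among 7683 genes tested over single oocytes, CDC25B and C13H3orf30 were the only genes whose CPM did not overlap between the dates, a share of 0.026%.

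The smallest adjusted p belonged to LOC100525835, a protein-coding locus without a symbol. It had 2.42, 8.66, 6.37 and 5.05 CPM in the sums of 22 September, against 81.2, 58.2, 61.3, 23.6 and 46.7 CPM in those of 17 September. All sums of 22 September were below all sums of 17 September, by a log2 difference of -3.17 (SE 0.29, adjusted p = 9.92e-06 in edgeR). Oocytes ranged between 0 and 12.3 CPM on 22 September and between 5.54 and 90.8 CPM on 17 September, so single oocytes did overlap at the edge.

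**Figure D2:**
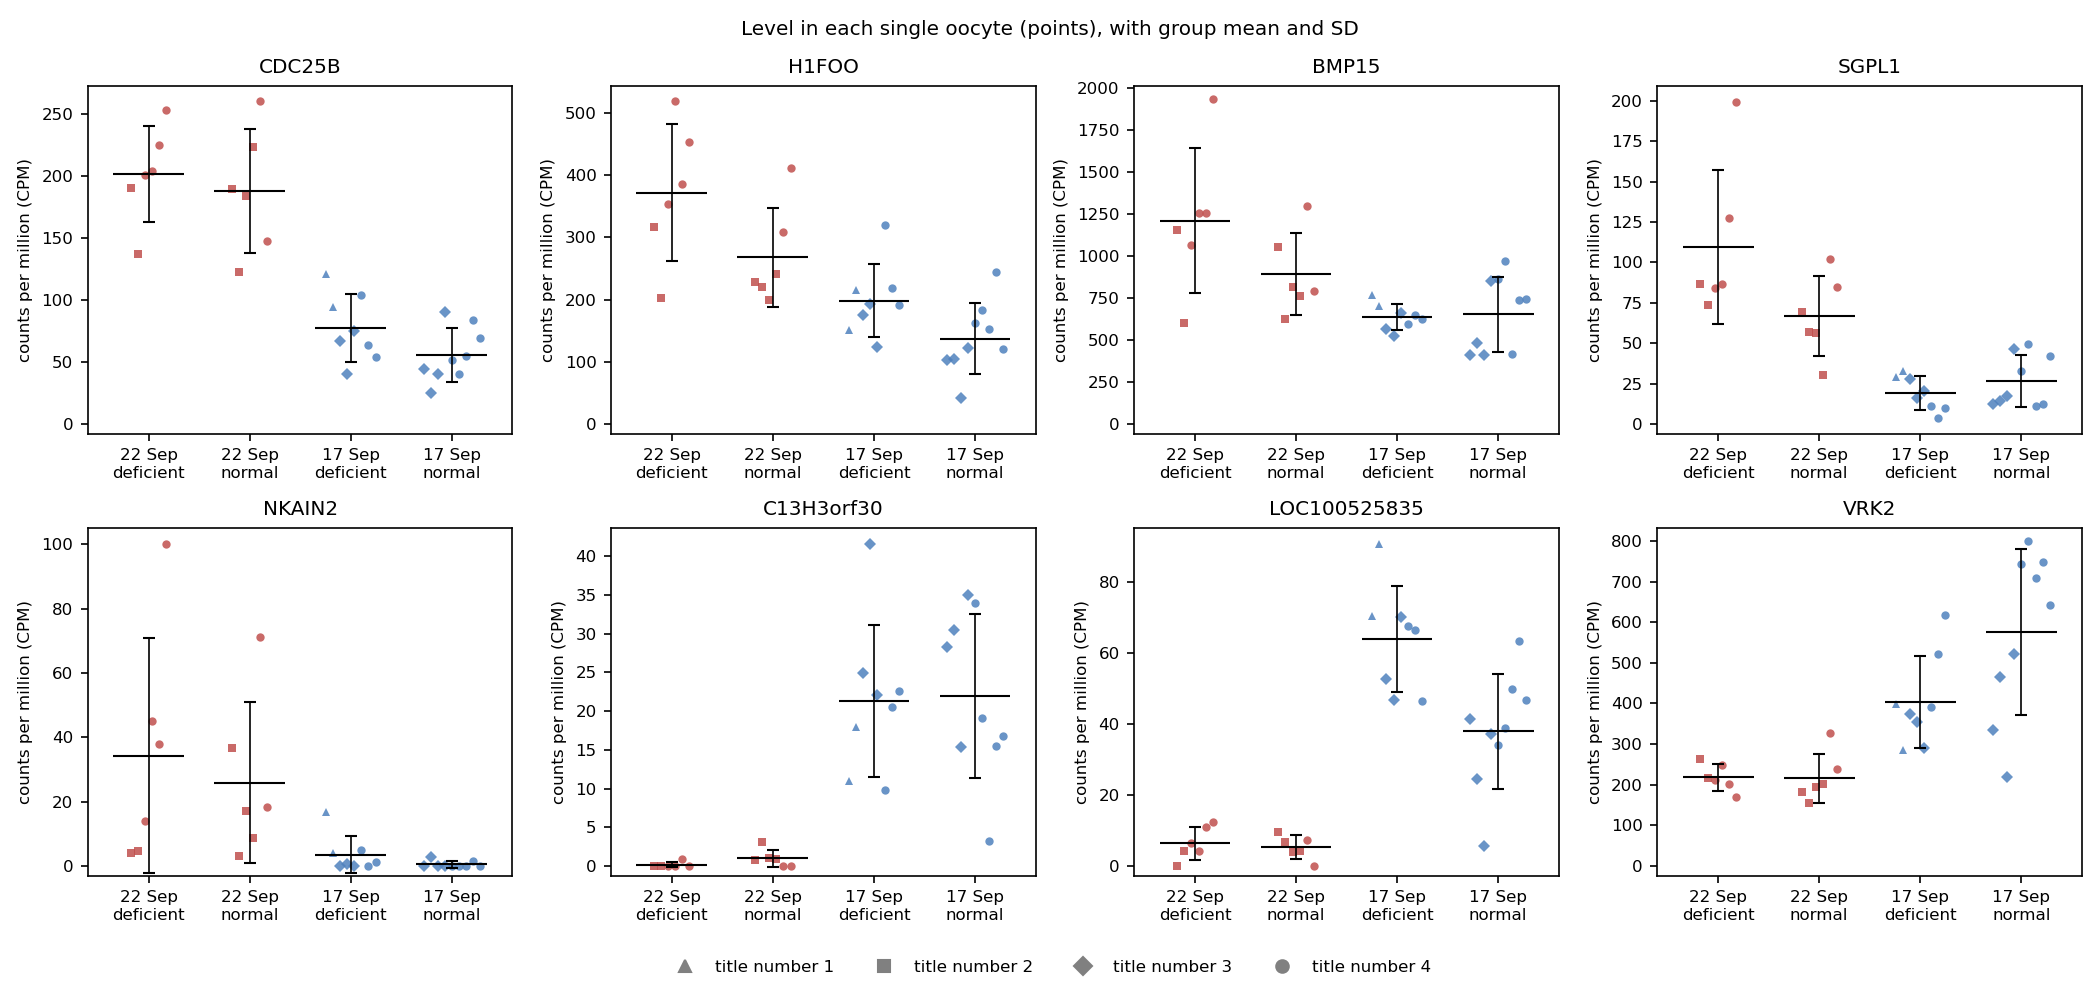
Each point is 1 oocyte, with its CPM on the vertical axis, its date and mtDNA state on the horizontal axis and its title number as the symbol; lines give the mean and SD of a group. CDC25B is between 123 and 261 CPM in all oocytes of 22 September and between 25.1 and 121 CPM in those of 17 September. On 22 September, C13H3orf30 is at most 3.05 CPM, and LOC100525835 lies between 0 and 12.3 CPM and overlaps with 17 September.

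H1FOO packs chromatin in the oocyte and in the early embryo in place of somatic H1. Its sums of 22 September held 249, 427, 223 and 339 CPM, against 185, 159, 254, 84.1 and 171 CPM in the sums of 17 September. Normal number 2 of 22 September and, by a small margin, deficient number 2 lay below deficient number 4 of 17 September, and the other sums of 22 September were above all of 17 September. The log2 difference was 0.86 (SE 0.17, adjusted p = 0.0253 in edgeR). BMP15, which acts on the surrounding follicle cells, had 826, 1404, 813 and 1149 CPM in the sums of 22 September and 735, 591, 619, 520 and 753 CPM in those of 17 September. Its sums did not overlap, but the log2 difference of 0.62 (SE 0.15) missed the threshold with an edgeR adjusted p of 0.0694. GDF9, its partner growth factor, was at 405, 771, 369 and 687 CPM on 22 September and at 421, 411, 340, 361 and 490 CPM on 17 September, with overlapping sums and a log2 difference of 0.34 (SE 0.18, adjusted p = 0.493 in edgeR).

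The list of genes for oocyte-secreted factors and the egg coat also holds other oocyte genes, such as the linker histone H1FOO, OOEP and WEE2. Of this list, 12 members were tested. H1FOO was the member that passed the threshold. The median log2 difference was 0.30 over the 12, beside -0.02 over all genes, with 8 members above 0 and 4 below. ZP2, a protein of the zona pellucida, averaged 676 ± 347 CPM in oocytes of 22 September and 444 ± 144 CPM in those of 17 September (SD, n = 12 and 17), with an edgeR adjusted p of 0.221. ZP4, another zona protein, averaged 282 ± 146 and 281 ± 91.9 CPM on the same dates, with an edgeR adjusted p of 0.949.

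CDC25B stood alone among 32 tested genes of meiosis and the metaphase arrest, whose median log2 difference was -0.04. CDC25C, another phosphatase of CDK1, had a log2 difference of -0.44 (SE 0.20, adjusted p = 0.441 in edgeR), with 69.1 ± 21.5 CPM in oocytes of 22 September and 84.8 ± 28.7 CPM in those of 17 September (SD, n = 12 and 17). CDC25A had a log2 difference of -0.31 (SE 0.49, adjusted p = 0.884 in edgeR). MOS, the kinase that starts the arrest at metaphase II, averaged 221 ± 72.7 CPM on 22 September and 235 ± 84.5 CPM on 17 September. CCNB1, the cyclin partner of CDK1, averaged 136 ± 34.6 CPM on 22 September and 116 ± 42.0 CPM on 17 September. Neither MOS nor CCNB1 passed the threshold, with edgeR adjusted p of 0.666 and 0.791.

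The other called genes are described by what each is known to do. That grouping was made after their values were seen, and no theme is claimed from it. The 15 higher and 13 lower genes of the naming rule are those with a mean CPM of at least 10 that were called over sums and over oocytes, at most 15 a direction. The 16 further called genes that fell outside that rule are named too, and were chosen after their values were seen.

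SGPL1 encodes the lyase that ends sphingosine-1-phosphate signalling. It had 79.0, 128, 53.7 and 96.8 CPM in the sums of 22 September and 31.3, 20.9, 8.76, 22.2 and 31.1 CPM in those of 17 September. The dates did not overlap, with a log2 difference of 1.84 (SE 0.29, adjusted p = 0.00581 in edgeR). RDH11, a retinol dehydrogenase of the endoplasmic reticulum, had 43.5, 13.6, 22.5 and 10.1 CPM on 22 September and 2.79, 1.87, 1.75, 3.13 and 3.86 CPM on 17 September. Its sums did not overlap either, with a log2 difference of 3.04 (SE 0.50, adjusted p = 0.00818 in edgeR). Title number 2 was the higher number of 22 September in both states for RDH11, and the lower one for SGPL1.

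Several higher genes act in membranes and transport. TMEM43, an inner nuclear membrane protein, had 49.6, 81.2, 35.2 and 61.5 CPM in the sums of 22 September and 9.75, 18.5, 6.31, 13.3 and 13.5 CPM in those of 17 September. Every sum of 22 September was above every one of 17 September, by a log2 difference of 2.03 (SE 0.30, adjusted p = 0.00337 in edgeR). RAB6A, a small GTPase of the Golgi, had 35.1, 92.8, 30.1 and 88.8 CPM on 22 September and 22.99, 15.1, 12.6, 22.7 and 22.6 CPM on 17 September. Its sums did not overlap, with a log2 difference of 1.504 (SE 0.28, adjusted p = 0.0253 in edgeR), and in both states number 4 of 22 September was more than number 2. TMEM129, a ubiquitin ligase of the endoplasmic reticulum, and DPY19L1, a mannosyltransferase, had log2 differences of 1.64 and 1.99 with an edgeR adjusted p of 0.0205 each.

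NKAIN2, which encodes a partner of the sodium pump, had the largest positive difference among the called genes, on uneven values. It had 4.43, 51.4, 16.3 and 55.6 CPM in the sums of 22 September and 10.1, 0.170, 2.45, 0.501 and 0.297 CPM in those of 17 September. Deficient number 1 of 17 September lay above deficient number 2 of 22 September, so the sums overlapped. The log2 difference was 3.98 (SE 0.77, adjusted p = 0.0253 in edgeR). All 12 oocytes of 22 September had a count of NKAIN2, against 7 of 17 on 17 September.

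Genes of transcription and signalling were also among the higher ones. POLR2B, the second-largest subunit of RNA polymerase II, had 16.9, 39.0, 10.8 and 26.9 CPM in the sums of 22 September and 6.27, 2.04, 2.45, 4.39 and 7.73 CPM in those of 17 September. The sums did not overlap, with a log2 difference of 2.23 (SE 0.41, adjusted p = 0.0205 in edgeR). Single oocytes were uneven: 6 of 22 September were above every oocyte of 17 September. Another 2 of 22 September had no count of POLR2B and lay below every oocyte of 17 September. The call of POLR2B was lost in 4 of the 9 cases with a sum left out. IKBKAP, the scaffold of the Elongator complex, had sums between 22.6 and 38.4 CPM on 22 September and between 5.61 and 16.2 CPM on 17 September, and passed with an edgeR adjusted p of 0.0422. RGS10, a brake on G-protein signalling, had sums between 16.9 and 29.4 CPM on 22 September and between 2.44 and 8.02 CPM on 17 September, with a log2 difference of 2.29 (SE 0.37, adjusted p = 0.00732 in edgeR). GPR32, a G-protein-coupled receptor, passed at a log2 difference of 1.97 (SE 0.43, adjusted p = 0.0473 in edgeR), with sums of 16.9 to 34.0 CPM on 22 September and 2.45 to 11.7 CPM on 17 September.

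CD28, a co-stimulatory receptor known from T cells, had 65.7, 41.4, 35.9 and 49.2 CPM in the sums of 22 September and 19.9, 3.74, 19.6, 2.51 and 11.1 CPM in those of 17 September. Its sums did not overlap, with a log2 difference of 2.31 (SE 0.39, adjusted p = 0.00830 in edgeR). Markers of leukocytes and blood summed to 0 to 3.65 CPM in an oocyte of 22 September and 0 to 20.5 CPM in one of 17 September. Of the 14 such markers in the table, CD14, AIF1, TYROBP, FCER1G, S100A8 and S100A9 had no count in any oocyte. CD3E, a chain of the T-cell receptor complex, averaged 0.277 CPM on 22 September and 0.251 CPM on 17 September. SPI1, the only member tested, had the sign opposite to CD28, at 0.893 ± 1.36 CPM on 22 September and 2.29 ± 2.23 CPM on 17 September. Its log2 difference was -2.01 (SE 1.10, adjusted p = 0.526 in edgeR). ALAS2 had counts in 2 oocytes, and averaged 0 CPM on 22 September and 1.26 ± 4.97 CPM on 17 September. A pair of loci without a symbol, the non-coding LOC106508228 and the protein-coding LOC100516665, completed the higher genes of the rule, with log2 differences of 2.42 and 1.94.

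Genes of secreted and adhesion proteins made up a part of the higher genes outside the rule. SVEP1, a large protein of the extracellular matrix, had 93.1, 104, 101 and 82.9 CPM in the sums of 22 September and 49.8, 37.9, 52.2, 20.8 and 37.0 CPM in those of 17 September. These did not overlap, with a log2 difference of 1.32 (SE 0.19, adjusted p = 0.00337 in edgeR). PCOLCE2, an enhancer of procollagen processing, had sums of 136 to 221 CPM on 22 September and 70.4 to 95.7 CPM on 17 September, with a log2 difference of 0.91 (SE 0.16, adjusted p = 0.0205 in edgeR). WIF1, an inhibitor of Wnt ligands, and IGFBP7, a secreted binding protein, had log2 differences of 1.2001 and 3.70, with edgeR adjusted p of 0.0410 and 0.0397. MCAM, an adhesion molecule, reached 2.19 with an edgeR adjusted p of 0.0442, and its sums overlapped.

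Markers of other cells of the follicle were counted on both dates. Theca and stroma markers summed to 15.8 to 66.7 CPM in oocytes of 22 September and 6.52 to 32.6 CPM in those of 17 September. COL1A2, a collagen chain, made up much of this sum, at 25.7 ± 13.8 CPM on 22 September and 12.04 ± 5.69 CPM on 17 September (SD, n = 12 and 17), with a log2 difference of 1.13 (SE 0.33, adjusted p = 0.152 in edgeR). TAGLN, a smooth muscle protein and the other tested member, had the opposite sign, at 3.46 ± 3.29 CPM on 22 September and 4.49 ± 4.35 CPM on 17 September, with an edgeR adjusted p of 0.876. PDGFRB, a receptor of stromal cells, averaged 0.131 CPM on 22 September and 1.201 CPM on 17 September. LUM had no count in any oocyte, and COL3A1, DCN and VIM each averaged under 1 CPM on both dates. Cumulus and granulosa markers summed to 28.3 to 77.5 CPM on 22 September and 21.5 to 101 CPM on 17 September. Of 23 such markers in the table, AMH, AMHR2, NR5A2, TNFAIP6, GJA1 and AREG had no count. Those with the most counts were GREM1, at 14.3 ± 9.08 CPM on 22 September and 19.5 ± 10.03 CPM on 17 September, and INHBA, at 15.1 ± 8.63 CPM on 22 September and 15.3 ± 7.18 CPM on 17 September. Of the 7 tested, 4 had a positive and 3 a negative difference, between -0.73 for SERPINE2 and 0.84 for CYP11A1. None of these lists had a member past the threshold over sums, and the part of such cells in the date difference was not tested.

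The remaining higher genes were AKAP13, a scaffold for protein kinase A (log2 difference 0.94), TP53BP2, a partner of p53 (1.31), the ribosomal RNA row RN5-8S (1.13), and the loci LOC102163860 (0.79), LOC106506591 (1.33) and LOC100625877 (3.02). RN5-8S had 428, 248, 541 and 318 CPM in the sums of 22 September and 231, 146, 216, 141 and 158 CPM in those of 17 September. All sums of 22 September were above those of 17 September, with an edgeR adjusted p of 0.0442, and in both states number 2 was above number 4 on 22 September.

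Of the lower genes with a known role, CEP290 is a protein of centrosomes and the base of cilia. It had 6.05, 16.6, 42.0 and 21.04 CPM in the sums of 22 September and 57.8, 39.3, 85.9, 41.9 and 54.7 CPM in those of 17 September. Normal number 2 of 22 September reached into the range of 17 September, and the other sums of 22 September were below it. The log2 difference was -1.57 (SE 0.33, adjusted p = 0.0422 in edgeR). CCDC88A, an actin-binding protein that also signals through G proteins, had 33.9, 39.4, 90.9 and 54.3 CPM on 22 September and 139, 136, 144, 117 and 93.0 CPM on 17 September. The sums did not overlap, although normal number 2 of 22 September came within a few CPM of normal number 4 of 17 September, and the log2 difference was -1.34 (SE 0.26, adjusted p = 0.0253 in edgeR).

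TRIP11, which tethers vesicles at the Golgi, had sums of 15.3 to 37.2 CPM on 22 September and 41.5 to 65.5 CPM on 17 September, with a log2 difference of -1.16 (SE 0.25, adjusted p = 0.0442 in edgeR). ANKRD12, a nuclear protein with ankyrin repeats, had sums of 23.7 to 32.9 CPM on 22 September and 52.2 to 68.7 CPM on 17 September, with a log2 difference of -1.15 (SE 0.22, adjusted p = 0.0253 in edgeR). Neither gene's sums overlapped. VRK2, a serine/threonine kinase related to the vaccinia virus kinases, had 236, 205, 182 and 300 CPM in the sums of 22 September and 339, 332, 493.2, 354 and 727 CPM in those of 17 September. All sums of 22 September were below those of 17 September, with a log2 difference of -0.99 (SE 0.21, adjusted p = 0.0402 in edgeR). The highest oocyte of 22 September had 327 CPM of VRK2, and 14 of the 17 oocytes of 17 September were above it.

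Another 6 loci named only by number were lower and met the naming rule. The long non-coding RNA LOC106509762 had 135, 224, 477 and 384 CPM in the sums of 22 September and 586, 618, 599, 524 and 668 CPM in those of 17 September. Its sums did not overlap, deficient oocytes of 22 September were lower than normal ones, and the log2 difference was -1.24 (SE 0.21, adjusted p = 0.00830 in edgeR). LOC102161527, LOC106505054, LOC102165354 and LOC106508959 had log2 differences of -0.85, -1.32, -1.26 and -1.51. LOC100625807, which the name table of a later pig assembly calls LCT, the gene of lactase, had one of -1.43.

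The lower genes outside the rule were rare transcripts. RAG2, a subunit of the recombinase that rearranges antigen receptor genes, had 0, 1.88, 0.849 and 0 CPM in the sums of 22 September and 12.5, 2.72, 11.6, 6.27 and 9.21 CPM in those of 17 September. Its counts were 14 over 12 oocytes and 197 over 17, the sums did not overlap, and the log2 difference was -3.40 (SE 0.71, adjusted p = 0.0410 in edgeR). MTBP, a protein that binds MDM2 and takes part in the start of DNA replication, had 1.61, 2.07, 4.25 and 0.421 CPM on 22 September and 20.2, 5.95, 11.2, 10.5 and 15.01 CPM on 17 September. All sums of 22 September were below those of 17 September, with a log2 difference of -2.55 (SE 0.52, adjusted p = 0.0397 in edgeR). FAM216A and LOC106510352 had log2 differences of -2.85 and -3.81. LOC102162653 had no count in any oocyte of 22 September and 79 counts over the 17 oocytes of 17 September. Against the limit of 3 counts over all 14877257 counts of 22 September it was at least 14.9-fold lower, a bound that covers counting error only, and its edgeR adjusted p was 0.0422.

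**Figure D3:**
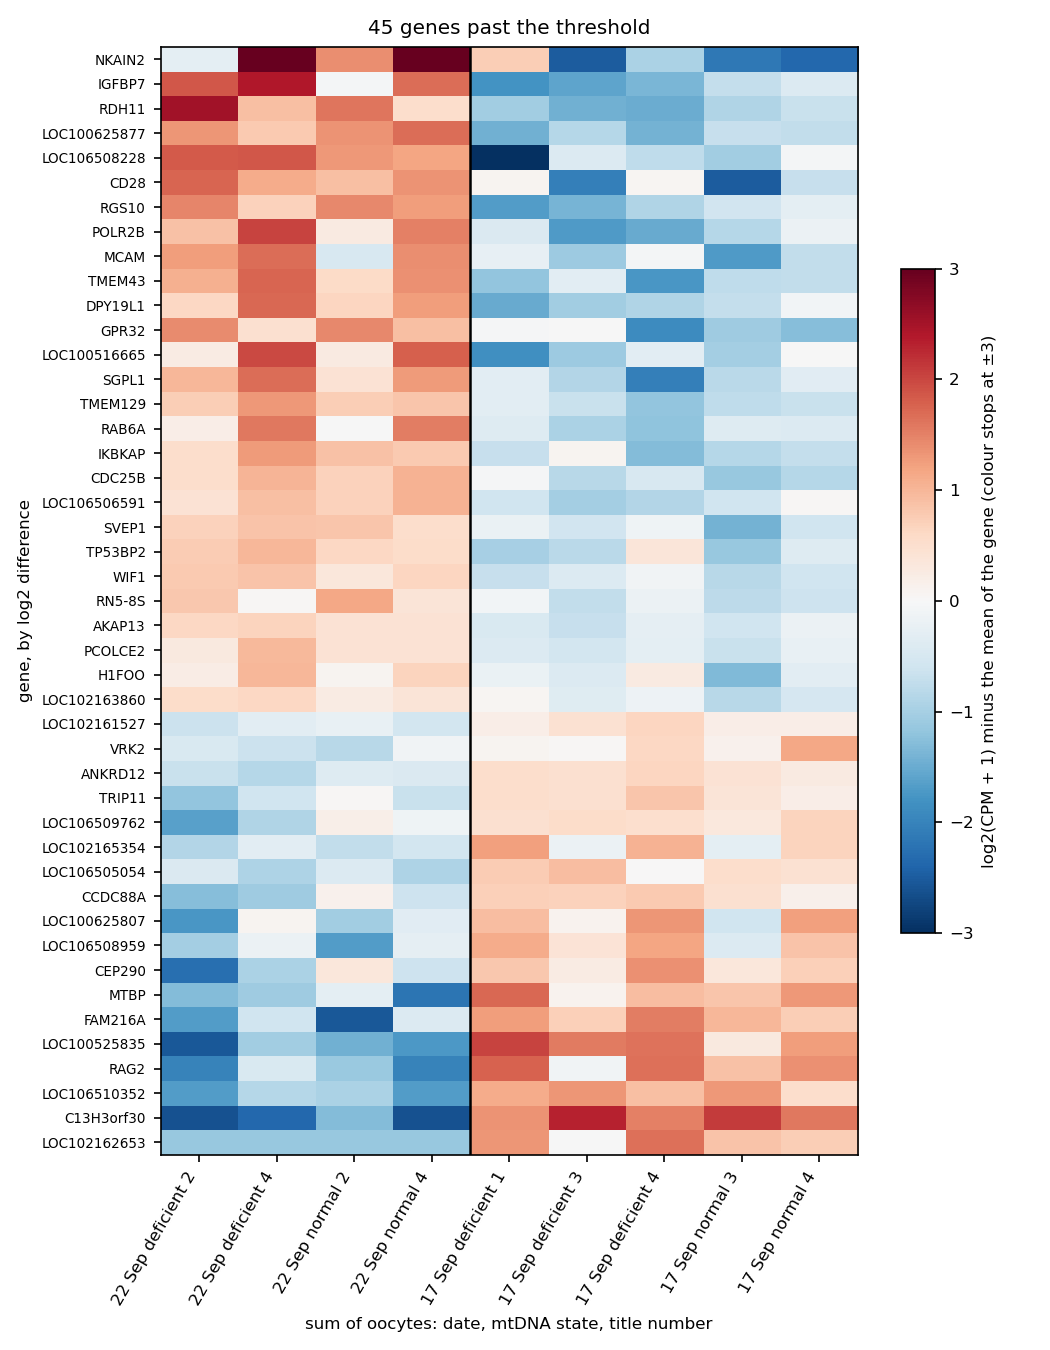
Rows are the 45 called genes in the order of their log2 difference, columns are the 4 sums of 22 September and, right of the line, the 5 sums of 17 September, and colour is log2(CPM + 1) minus the mean of the gene over the 9 sums. The 27 higher genes are mostly red left of the line and the 18 lower genes mostly blue, with exceptions such as NKAIN2 in deficient number 2 of 22 September and deficient number 1 of 17 September.

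Among the 45 called genes, the sums of 39 did not overlap between the dates. Over all 11850 genes tested, 386 had sums that did not overlap (3.26%), 277 of them higher and 109 lower on 22 September. The calls and the overlap rest on the same sums, so the share among the called genes is a description. Overlapping sums were found for CEP290, LOC106508959, LOC100625807, H1FOO, MCAM and NKAIN2.

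Beyond CDC25B and H1FOO, no member of the 27 gene lists passed the threshold over sums. The lists held 706 distinct tested genes, of which 2 passed (0.283%), beside 0.38% of all genes. Without adjustment, 74 of the 706 had a p under 0.05 (10.5%), beside 11% of all genes tested. Median log2 differences of lists with 10 or more tested members ran between -0.16, for lipid storage and oxidation, and 0.34, for cytosolic ribosomal proteins. Of 47 ribosomal protein genes tested, 33 had a positive difference, beside 5745 of the 11850 genes tested. The smallest unadjusted p among them was that of RPL5, and its edgeR adjusted p was 0.207. RPL5 averaged 42.6 CPM in oocytes of 22 September and 27.1 CPM in those of 17 September.

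The mitochondrial lists, the subject of the series, held no called gene, beside 45 of 11850 over all genes (0.38%). At that share, no call in lists of this size says little about them. Of 20 tested genes that replicate or transcribe mtDNA, 11 had a positive and 9 a negative difference, with a median log2 difference of 0.12, and TFAM, TFB2M and PPARGC1A had no count in any oocyte. The respiratory chain and ATP synthase had 27 positive and 18 negative differences among 45 tested genes (median 0.08), and the mitochondrial ribosome 31 and 26 among 57 (median 0.11). Genes of lipid storage and oxidation had 14 positive and 26 negative differences among 40, and chromatin regulators 17 and 21 among 38 (median -0.10). Heat shock and immediate early genes, which include markers of handling stress, had 19 positive and 10 negative differences among 29 tested (median 0.15), and the list of p53 and cell death had 8 and 5 among 13 (median 0.29). Over all genes tested, 5745 differences were positive and 6105 negative. No member of these lists passed over sums, which says little for the same reason.

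Genes that store, polyadenylate or degrade maternal mRNA had 29 tested members. Of these, 21 had a negative difference, beside 6105 of the 11850 genes tested. An unadjusted p under 0.05 with a negative sign was found for 8, beside 621 of 11850, but none passed over sums, and the median log2 difference was -0.09. ZFP36L2, which binds AU-rich mRNA tails and directs their decay, averaged 47.1 ± 10.3 CPM in oocytes of 22 September and 82.3 ± 37.1 CPM in those of 17 September (SD, n = 12 and 17), with a log2 difference of -0.85 (SE 0.21, adjusted p = 0.0938 in edgeR). DCP2, the decapping enzyme, averaged 60.2 ± 22.3 CPM on 22 September and 83.1 ± 20.2 CPM on 17 September, with an edgeR adjusted p of 0.208. EIF4ENIF1, which represses stored mRNA by binding the cap-binding protein, ran the other way, at 288 ± 121 CPM on 22 September and 196 ± 42.4 CPM on 17 September, with an edgeR adjusted p of 0.344. BTG4, an adaptor of mRNA deadenylation in the oocyte, averaged 312 ± 85.3 and 307 ± 103 CPM on the same dates.

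With each of the 29 oocytes taken as a sample, 170 of 7683 tested genes were higher (2.21%) and 163 lower (2.12%) on 22 September, in all 4.33%. This test treats oocytes that may share an animal or a preparation, and libraries that may share an oocyte, as independent. Its p-values may therefore be too small. Of the 45 genes called over sums, 39 were tested there, and all 39 were called with the same sign, on the same oocytes that make up the sums. Among the 546 list members tested over oocytes, 20 passed (3.66%), 11 higher and 9 lower. They included BMP15 (log2 difference 0.58, edgeR adjusted p = 0.000934), the germline transcription factor SOHLH2 (-2.16, edgeR adjusted p = 0.000347), the histone demethylase KDM1B (-0.73, edgeR adjusted p = 0.000964) and ZFP36L2 (-0.80, edgeR adjusted p = 0.00232). SOHLH2 averaged 6.29 ± 5.42 CPM in oocytes of 22 September and 24.0 ± 11.2 CPM in those of 17 September, and over sums its edgeR adjusted p was 0.0546.

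The other list members that passed over oocytes were spread over several lists. Higher on 22 September were the splicing protein HNRNPM (1.28), the mitochondrial mRNA-binding protein LRPPRC (1.30), the autophagy receptor CALCOCO2 (1.00), the DNA repair protein FANCD2 (0.83), NLRP13 (0.72), the histone chaperone NASP (0.50), the co-chaperone DNAJA1 (0.46) and COL1A2 (1.09), all as log2 differences. Lower were the mitochondrial ribosomal protein MRPL13 (-1.25), the citrate cycle enzyme IDH2 (-0.82), the fatty acid elongase ELOVL5 (-0.61), DCP2 (-0.57), the importin KPNA3 (-0.53) and PDHA1 of pyruvate dehydrogenase (-0.45). Of these 14 genes, none passed over sums. Outside the lists, and chosen after their values were seen, FURIN, a protease that matures growth factors, had a log2 difference over oocytes of 1.00 (edgeR adjusted p = 0.000234) and BHLHA9, a transcription factor, one of -0.89 (edgeR adjusted p = 0.000151), while over sums their edgeR adjusted p were 0.0694 and 0.103.

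The date difference was also taken within each mtDNA state. Among deficient sums alone (2 of 22 September against 3 of 17 September), 6 genes were higher (0.0581%) and 8 lower (0.0775%) of 10328 tested, in all 0.136%. Among normal sums alone (2 against 2), 2 genes were higher (0.0171%) and 1 lower (0.00856%) of 11687 tested, in all 0.0257%. The 45 genes were called from both states together, so their shared sign in both states follows largely from that choice and is given as a description. Over the 10029 genes tested in both states, the date differences of the states had a Pearson correlation of 0.281 and a Spearman correlation of 0.235, across genes, which are not independent replicates. Of the 14 genes called in deficient sums, all 14 had the same sign in normal sums. Among these 14, 9 had an unadjusted p under 0.05 there, beside 715 of all 11687 genes tested, in either direction. The 3 genes called in normal sums had the same sign in deficient sums, each with an unadjusted p under 0.05. Such a p was found in deficient sums for 968 of all 10328 genes tested, in either direction. Deficient and normal sums that share a date and a title number deviated together, so the states are not independent. Each fit has few sums and 3 or 2 residual degrees of freedom before information is shared across genes.

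LOC100525835 passed in both states, with a log2 difference of -3.52 (SE 0.40, adjusted p = 0.00257 in edgeR) in deficient sums and -2.74 (SE 0.41, adjusted p = 0.0453 in edgeR) in normal sums. CDC25B had 1.28 (SE 0.25, adjusted p = 0.0714 in edgeR) in deficient and 1.64 (SE 0.24, adjusted p = 0.0453 in edgeR) in normal sums. NKAIN2 had 2.72 (SE 0.92, adjusted p = 0.389 in edgeR) in deficient and 6.05 (SE 0.70, adjusted p = 0.00682 in edgeR) in normal sums. H1FOO had 0.81 and 0.94, with edgeR adjusted p of 0.296 and 0.464. Whether the states differ in the date difference was tested as an interaction term, and 0 of 12911 genes passed in edgeR (0%), with 486 at an unadjusted p under 0.05 and a smallest adjusted p of 0.755. Over 29 oocytes, 0 of 8624 passed (619 at an unadjusted p under 0.05), limma-voom called 0 genes, and DESeq2 called 1, KTN1. The median SE of the interaction was 0.871 on the log2 scale, so differences between the states of that order were not detectable with these 9 sums. Larger estimates did not pass either. IGFBP7 had an interaction of 4.35 (SE 1.31) and NKAIN2 one of -3.30 (SE 1.41), with an edgeR adjusted p of 0.999 each.

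**Figure D4:**
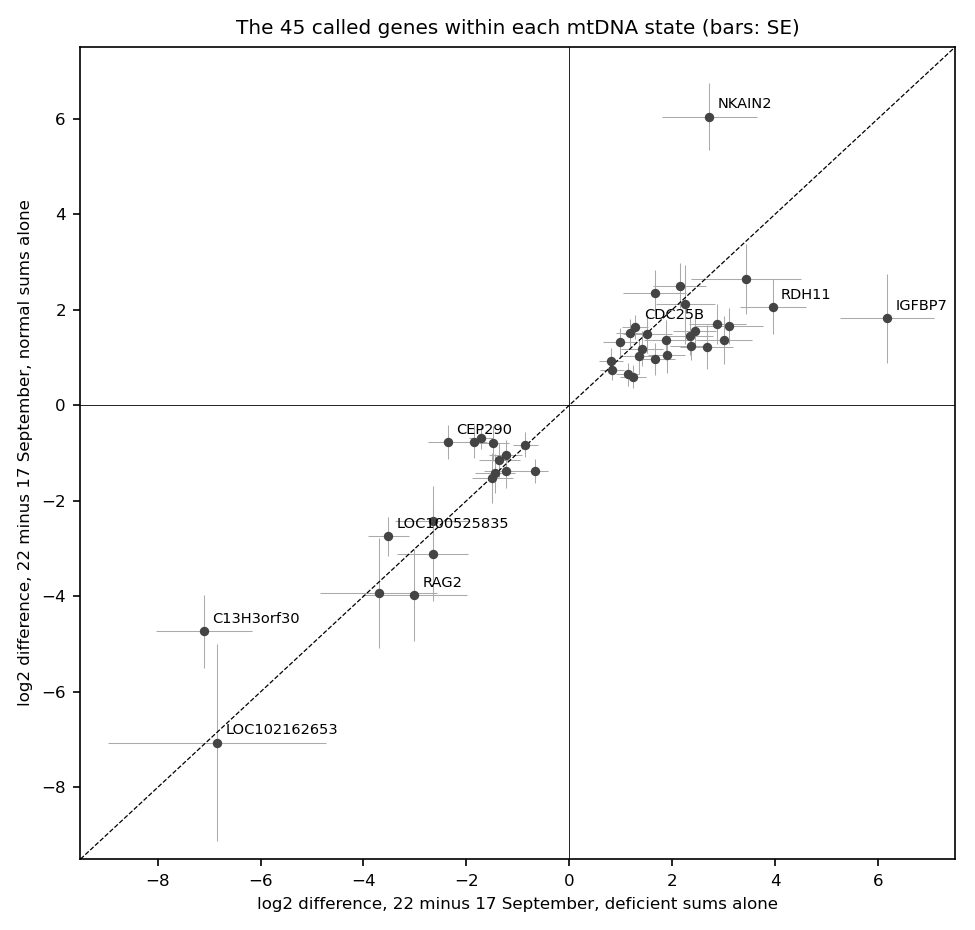
Each point is 1 of the 45 called genes, with its log2 difference between the dates in deficient sums (horizontal) and in normal sums (vertical), SE as bars and equality as the dashed line. The genes were chosen by a test over both states together, so their like signs are no separate evidence, and NKAIN2 (2.72 and 6.05) and IGFBP7 (6.18 and 1.82) lie far from the line.

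Title number 4 is the only number found on both dates. It has 1 sum for each date and state, so each oocyte was taken as a sample, and the p-values below may be too small. With the oocytes of that number alone, 6 of 22 September and 8 of 17 September, 143 genes were higher (1.76%) and 140 lower (1.73%) of 8104 tested, in all 3.49%. Of the 45 genes, 41 were tested there, all 41 kept their sign, and 32 were called, with the caveat that these oocytes are also among those from which the 45 genes were called. CDC25B had a log2 difference of 1.57 (edgeR adjusted p = 1.36e-07), C13H3orf30 of -6.40 (edgeR adjusted p = 5.82e-06), VRK2 of -1.43 (edgeR adjusted p = 1.36e-07) and RGS10 of 1.27 (edgeR adjusted p = 0.306).

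Each of the 9 sums was left out in turn. Between 8 and 31 genes were then higher and between 4 and 27 lower, and no called gene changed sign. C13H3orf30, CDC25B, LOC100525835, RGS10, SGPL1, SVEP1 and TMEM43 were called every time, with edgeR adjusted p of at most 0.0356. The other 38 genes lost their call at least once, and 29 of the 45 lost it in 5 or more of the 9 cases. Lost only once were 3 calls: CD28 without deficient number 2 of 22 September (edgeR adjusted p = 0.0543), LOC106509762 without deficient number 4 of 22 September (0.0557) and RDH11 without deficient number 3 of 17 September (0.0515). GPR32, IKBKAP, MCAM, MTBP, RAG2 and TP53BP2 lost their call in 8 cases. RN5-8S lost its call in 7, with an edgeR adjusted p of at most 0.239. H1FOO lost its call in 5 of the 9 cases, NKAIN2 in 5, VRK2, CEP290 and CCDC88A in 7 and WIF1 and LOC102162653 in all 9, with edgeR adjusted p of at most 0.0873, 0.160, 0.117, 0.152, 0.119, 0.135 and 0.125. The fewest calls, 8 higher and 4 lower, were left without deficient number 3 of 17 September.

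Library measures were compared over single oocytes taken as independent, without mtDNA state as a covariate, and some differed between the dates. RN18S, the 18S ribosomal RNA, took 3.97% ± 0.697 of the counts in oocytes of 22 September and 2.97% ± 0.688 in those of 17 September (SD, n = 12 and 17; two-sided permutation test, p = 0.00114, adjusted over 5 measures 0.00285). The difference was 0.951 percentage points in deficient and 0.999 in normal oocytes. Within title number 4 it was 0.734 points (exact permutation p = 0.0986). Over the 9 sums the exact permutation p was 0.0952, adjusted over 5 measures 0.238. The row that names no gene held 5.97% ± 2.04 of the counts, this row included, in oocytes of 22 September. In those of 17 September it held 3.51% ± 1.46 (permutation p = 0.00108, adjusted 0.00285). Within title number 4 the difference was 0.852 points (exact permutation p = 0.396). Over the 9 sums its exact permutation p was 0.0317, adjusted over 5 measures 0.159, so neither share passed over sums after adjustment.

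Total counts averaged 1239771 ± 264738 in oocytes of 22 September and 1547602 ± 561223 in those of 17 September (permutation p = 0.0744, adjusted 0.124). Genes with a count averaged 12618 ± 1735 on 22 September and 12910 ± 1229 on 17 September (permutation p = 0.593), and the share of LOC102158401 differed by -2.47 percentage points (permutation p = 0.330). With all libraries thinned to the smallest total, 39 genes were higher and 23 lower, and 39 of the 44 called genes tested there were called again. The part of the RN18S share and of the row without a gene name in the date difference was not tested. Without LOC102158401 and RN18S in the library sizes, 28 genes were higher and 18 lower, and all 45 genes were called again.

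**Figure D5:**
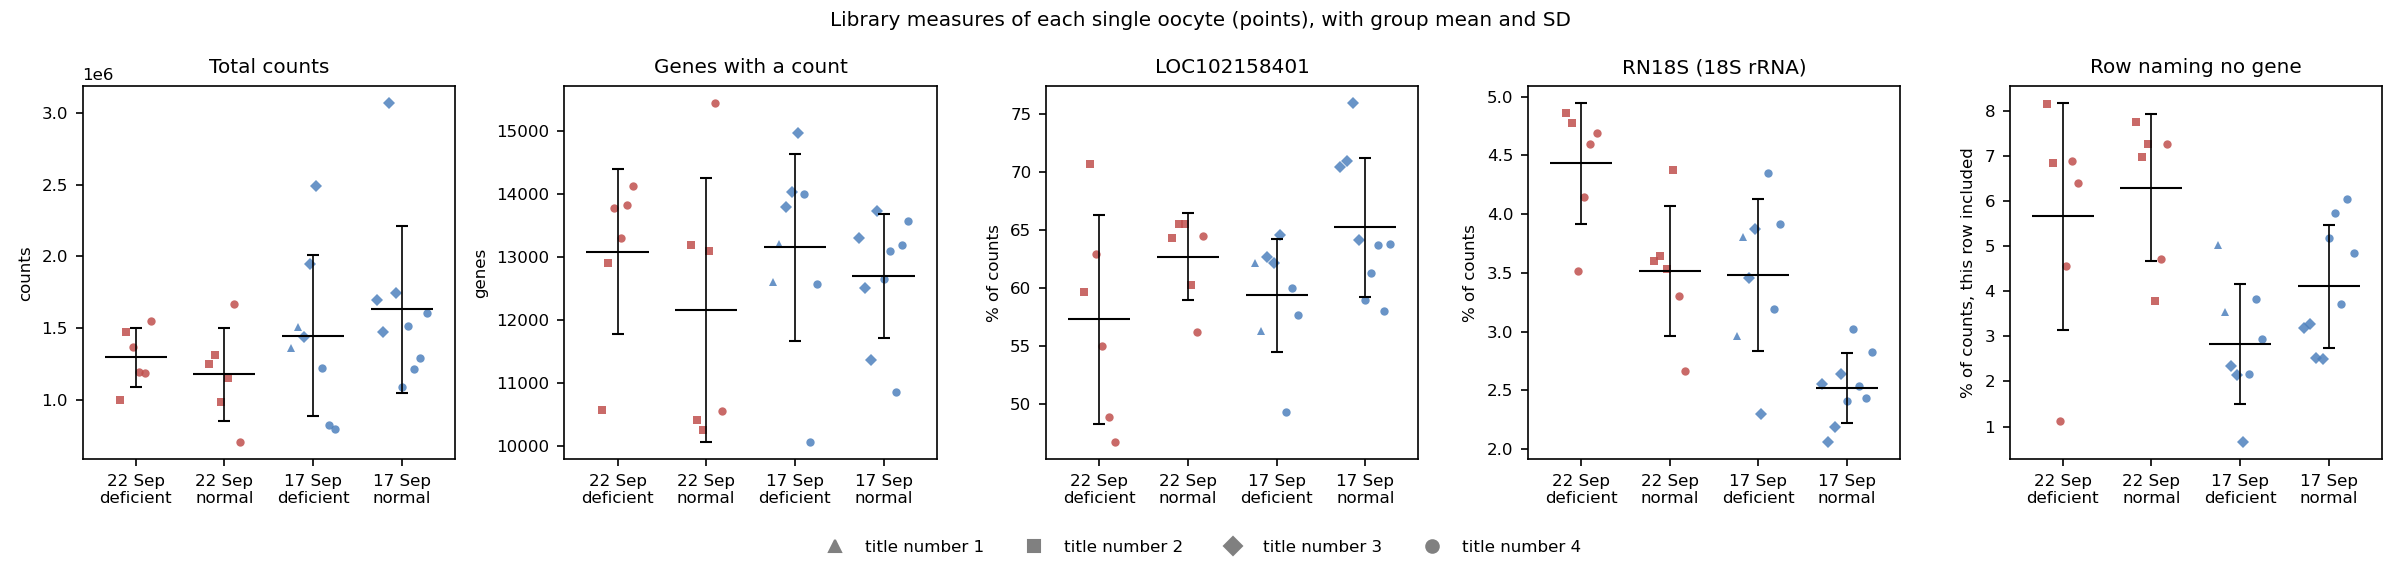
Each point is 1 oocyte, by date and mtDNA state, with the group mean and SD as lines and the title number as the symbol. The RN18S share averages 3.97% in oocytes of 22 September and 2.97% in those of 17 September with overlap between the dates, while genes with a count overlap throughout.

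The S numbers in the titles run between 1 and 32 with none repeated, and fall in separate runs by date. Oocytes of 17 September carry numbers within 1 to 7, 15 to 21 and 29 to 32. Those of 22 September carry numbers within 8 to 14 and 22 to 28. Title numbers 1 and 3 occur on 17 September and number 2 on 22 September, so for these numbers the title number and the date cannot be told apart. Likewise, animals, handling and preparation that may have gone with each date cannot be told apart from it with these labels.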

How the data were processed

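Counts of 29 single oocytes were used. The authors deposited raw counts, whole numbers for each gene and oocyte; the submitters' processing notes name FastQC, Trim Galore, TopHat2 2.0.14, edgeR and the build Sscrofa10.2. The sources used here do not give the counting program or its strand setting, so reads of overlapping antisense genes cannot be told apart, and near-identical copies are uncertain. The table has 38795 rows. The row that names no gene was left out of totals and tests and held 0.648% to 8.15% of the counts of an oocyte, this row included. No gene positions are used here. Of 38794 named rows, 23158 matched RefSeq name tables of a later assembly.

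Counts were summed by date, mtDNA state and first title number into 9 sums. The test was edgeR 4.0.16 in R 4.3.3 (quasi-likelihood, default expression filter, TMM, mtDNA state as covariate, 6 residual degrees of freedom) with Benjamini-Hochberg adjustment over all genes tested and a threshold of 0.05. The SE is the log2 difference divided by the square root of F. The naming rule took the 15 genes of largest change in each direction that were called over sums and oocytes with the same sign and had a mean CPM of at least 10, called list members (up to 3 a list), and CDC25B, H1FOO, BMP15, GDF9, LOC102158401 and RN18S. In all, 13 lower genes met it. Library measures were compared by two-sided permutation tests (100000 resamples, or exact with fewer than 10 oocytes or sums in a group), without a covariate. DESeq2 1.42.0 and limma 3.58.1 served as alternatives. No pair of oocytes within a date and state agreed within sampling noise: chi-square over degrees of freedom was at least 4.09 in all 94 pairs.

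The members, the 27 gene lists and the tests were chosen with earlier results of these data known. On simulated data for the 9 sums, 11150 genes passed the expression filter and were tested. Of tested genes given a log2 change of 1, 34% were found (32 of 94). Of those given a log2 change of 2, 81.7% were found (76 of 93), and 2 calls were false. Each sum was simulated independently, without the shared deviation of sums of the same date and title number. The number of false calls therefore says little about the real data.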

Additional observations from a re-analysis of the deposited data

Results flagged for a closer look

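A sample far from the others of its group was looked for in 214 groups of oocytes (a gene or library measure, by date and mtDNA state). Dixon's test was used at the 95% level, which for normally distributed values marks about 1 group in 20 by chance alone. In all, 25 were marked. CPM values at few counts need not be so distributed, so that rate is no yardstick for them. For C13H3orf30 in deficient oocytes of 22 September, the marked value is 1 count. Of the library measures, 1 normal oocyte of 17 September had 3067523 counts, against 1743308 in the next, and 1 deficient oocyte of 22 September had 10563 genes with a count, against 12894 in the next lowest.

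In deficient oocytes of 22 September, single oocytes stood above the rest with 0.839 CPM of C13H3orf30 (all others at 0), 68.6 CPM of GPR32 (next 21.3), 35.5 CPM of LOC102165354 (next 14.2), 8.04 CPM of FAM216A (next 1.68), 5.00 CPM of RAG2 (next 1.46), 65.7 CPM of RDH11 (next 28.5) and 600.9 CPM of RN5-8S (next 323). In normal oocytes of 22 September, they held 3.05 CPM of C13H3orf30 (next 1.01), 4.19 CPM of FAM216A (next 1.41), 792 CPM of GDF9 (next 467), 123 CPM of LOC100516665 (next 45.5) and 2.60 CPM of LOC106510352 (all others at 0).

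In deficient oocytes of 17 September, single oocytes held 16.9 CPM of NKAIN2 (next 4.89), 88.8 CPM of TRIP11 (next 58.3), 27.6 CPM of FAM216A (next 16.1), 20.5 CPM of LOC102162653 (next 6.63), 32.5 CPM of MTBP (next 14.5) and 45.9 CPM of TP53BP2 (next 23.8). In normal oocytes of 17 September, they held 78.7 CPM of LOC106508959 (next 35.5), 20.2 CPM of POLR2B (next 9.75), 6.42 CPM of LOC100625877 (next 2.36), 7.25 CPM of MCAM (next 2.04) and 291 CPM of RN5-8S (next 172).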

How the results depend on the processing

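Counts of higher and lower genes, 27 and 18 as reported, moved with the unit and the model. They were 170 and 163 with each oocyte as a sample, 143 and 140 within title number 4, 175 and 181 with genes detected as a covariate, 111 and 80 in DESeq2, 45 and 26 in limma-voom, and 131 and 106 without an expression filter. They were 20 and 6 with library size alone, 22 and 6 at a mean CPM of at least 10 (78.6% higher), 21 and 7 after thinning without the 2 largest gene rows (75% higher), 23 and 8 without the oocytes of lowest total and fewest genes (74.2% higher), 6 and 8 in deficient sums and 2 and 1 in normal sums. Only title number 4 is on both dates, and its sums did not deviate together across the dates (r across genes 0.019 in deficient and 0.022 in normal sums), so the numbers were not taken to pair the dates; with the title number as a replicate block the counts were 129 and 112 over sums and 137 and 111 over oocytes. With date, state and number as a random block in limma-voom over oocytes they were 140 and 116. Among settings chosen after seeing the data, date and number as a random block in limma-voom gave 24 and 12 over sums (estimated correlation 0.150) and 90 and 81 over oocytes, and leaving out title number 2 of 22 September gave 118 and 156. Leaving out each sum in turn gave 8 to 31 higher and 4 to 27 lower genes. The cause of these shifts was not tested. The interaction had 1 call in DESeq2. LOC102158401, not called, had a log2 difference of 0.15 in deficient sums and of -0.395 to 0.0937 when sums were left out in turn. Within title number 4, total counts differed by 83173 and genes detected by 1007, both higher on 22 September, the RN18S share by 0.734 points and the share of the row without a gene name by 0.852 points; over the 9 sums the RN18S share differed by 0.905 points. Rare transcripts are limited by depth: intervals and the limit of 3 counts cover counting error only.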
